A study of Homo sapiens with 12 samples.

Results

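The genes described here are 7 S100 genes of myeloid cells on chromosome 1: S100A4, S100A6, S100A8, S100A9, S100A10, S100A11 and S100A12. They were chosen by name, as the myeloid members of the S100 gene cluster, and not by a rule on any value of the peak lists. Earlier results of these data were known when the choice was made. The 7 genes are among the 19962 protein-coding genes of the GENCODE annotation (GRCh38) that were placed on the same lists. H3K4me2, dimethylation of lysine 4 of histone H3, was mapped by ChIP-seq (immunoprecipitation of chromatin followed by sequencing) in U-937. This is an established human monocytic line that the labels call AML cells. The cells were kept for 24 hours with the vehicle DMSO, with all-trans retinoic acid (ATRA) at 0.1 µM, with Corin at 0.1 µM, or with both drugs at 0.1 µM each, and the labels carry 0.1 µM for the vehicle too. Of 12 libraries, 8 were H3K4me2 libraries (2 for each treatment) and 4 were inputs (1 for each treatment). Each treatment has 1 deposited peak list made from its pooled libraries. The lists of DMSO, ATRA, Corin and the combination are therefore compared as 4 single values, with no replicate error and no test, and all of them come from 1 cell line.

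S100 proteins are small calcium-binding proteins of the EF-hand family. S100A8 and S100A9 form calprotectin, an abundant protein complex of the cytosol of neutrophils and monocytes, and S100A12 is a related alarmin of the same cells. Dimethylated H3K4 marks promoters and enhancers, and the demethylase LSD1, a subunit of the CoREST complex, removes it. Corin is a synthetic inhibitor of LSD1 and of the class I histone deacetylases in CoREST, and ATRA is the ligand of the retinoic acid receptors and drives myeloid differentiation.

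The promoter bases of 4 members are shown: S100A12 because peak edges fall inside these bases, and S100A9, S100A4 and S100A10, which were covered over all 250 bases in every list, as promoters of differing CpG content to set beside it. Each run is the 250 bases upstream of the start site, 5′ to 3′ on the gene's own strand, from the RefSeq promoter table (GRCh38.p14), in which all 7 members were matched and their starts lay 0 bases from the GENCODE starts. Capitals mark the letters TATAAA on the gene's strand and, on both strands, TTNNGNAA (a C/EBP core), GAGGAA (a PU.1 core, TTCCTC when read on the other strand) and AGGTCA (the retinoid receptor hexamer). The matches do not overlap one another in the runs shown. The run of S100A12 lies at chr1:153375622-153375871 on the minus strand, that of S100A9 at chr1:153357604-153357853 on the plus strand, that of S100A4 at chr1:153545807-153546056 on the minus strand and that of S100A10 at chr1:151993860-151994109 on the minus strand.
S100A12: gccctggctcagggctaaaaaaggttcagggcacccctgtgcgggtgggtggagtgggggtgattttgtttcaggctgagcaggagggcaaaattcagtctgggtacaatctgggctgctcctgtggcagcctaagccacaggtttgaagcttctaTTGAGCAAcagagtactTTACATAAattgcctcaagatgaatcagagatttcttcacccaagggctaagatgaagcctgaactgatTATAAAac
S100A9: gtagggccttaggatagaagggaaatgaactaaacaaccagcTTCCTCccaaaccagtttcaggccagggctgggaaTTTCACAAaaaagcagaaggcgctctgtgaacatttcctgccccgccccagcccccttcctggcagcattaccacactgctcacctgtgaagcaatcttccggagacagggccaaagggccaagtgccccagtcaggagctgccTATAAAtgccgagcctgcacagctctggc
S100A4: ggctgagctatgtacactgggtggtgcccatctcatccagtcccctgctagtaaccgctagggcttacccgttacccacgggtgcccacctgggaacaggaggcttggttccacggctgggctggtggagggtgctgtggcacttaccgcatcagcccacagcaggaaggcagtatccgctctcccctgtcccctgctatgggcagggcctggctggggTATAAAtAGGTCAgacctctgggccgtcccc
S100A10: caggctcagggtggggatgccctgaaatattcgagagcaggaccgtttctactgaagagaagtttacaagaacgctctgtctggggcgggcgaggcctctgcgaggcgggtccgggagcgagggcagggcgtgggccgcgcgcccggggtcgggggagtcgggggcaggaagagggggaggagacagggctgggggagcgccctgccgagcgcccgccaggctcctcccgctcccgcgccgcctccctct

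TATAAA was found 8 bases upstream of the S100A12 start, 29 bases upstream of S100A8 and of S100A9 and 31 bases upstream of S100A4, and it stands in 6.80% of the 35116 promoters of the table. The C/EBP letters were found 94 and 77 bases upstream of S100A12, 173 upstream of S100A9, 117 upstream of S100A8, 120 upstream of S100A6, and 248 and 33 upstream of S100A11, against 33.2% of all promoters. The PU.1 letters were found at S100A8 (189 bases upstream) and S100A9 (208 bases), against 23.6% of all promoters. The hexamer AGGTCA was found in S100A4 alone of the 7, 24 bases upstream, against 12.1%. S100A10 held none of the 4. The members also differ in CpG content. S100A10 and S100A6 have 24 CpG dinucleotides each in these 250 bases and S100A11 has 15, above the table's median of 11. S100A4 has 7, S100A9 4, S100A8 2 and S100A12 1, and only 6.06% of promoters have fewer than S100A12. These letters describe the windows and say nothing of which factors bind there.

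The 4 lists differ in length and depth, which bears on every value below. They hold 65172 peaks in DMSO, 66385 in ATRA, 73997 in Corin and 83969 in the combination, and cover 73.4, 83.7, 95.02 and 108.5 Mb. Depth recovered from the deposited fold and −log10 p of the peaks, relative to DMSO, was 1.02, 1.10 and 1.20 for the H3K4me2 libraries of ATRA, Corin and the combination, and 1.15, 1.19 and 1.13 for their inputs. Of 11 myeloid marker genes (chosen to check the myeloid character of the line), 8, 8, 8 and 5 had their start site under a peak in DMSO, ATRA, Corin and the combination. A peak lay within 1 kb of 10, 10, 9 and 10 of them. Of 16 markers of T, B, erythroid, epithelial and fibroblast cells, 4, 2, 2 and 3 start sites lay under a peak.

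At the start sites, 6 of the 7 genes lay under an H3K4me2 peak in DMSO, where 47.3% of all protein-coding genes did. The count was 6 in ATRA (48.1% of all genes), 7 in Corin (38%) and 7 in the combination (38%). The single difference was S100A12, whose start was under a peak in the Corin and combination lists and in neither of the others. A start site newly under a peak was found in 4.69% of all genes in ATRA against DMSO, 2.31% in Corin and 2.69% in the combination. A start no longer under a peak was found in 3.89%, 11.6% and 11.9% of all genes, and in 0 of the 7 members in each contrast. The combination against ATRA had 1 member newly under a peak, S100A12 (background 1.99%), and 0 no longer (12%), and against Corin 0 and 0 (5.61% and 5.62%). With a margin of 1 kb around the start, 6 members had a peak in DMSO (61.3% of all genes) and 7 in ATRA (61.5%), in Corin (61.5%) and in the combination (62.3%). The covered share of the members' 40640 bases of gene body was 50.3% in DMSO, 53.8% in ATRA, 68.1% in Corin and 72.4% in the combination. S100A11 (15402 bases) and S100A10 (10945) make up most of that length. No all-gene value of this share is given here. All peaks of the lists together covered 1.14, 1.29 and 1.48 times the DMSO length in ATRA, Corin and the combination, so the lists as a whole grew too.

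**Figure D1:**
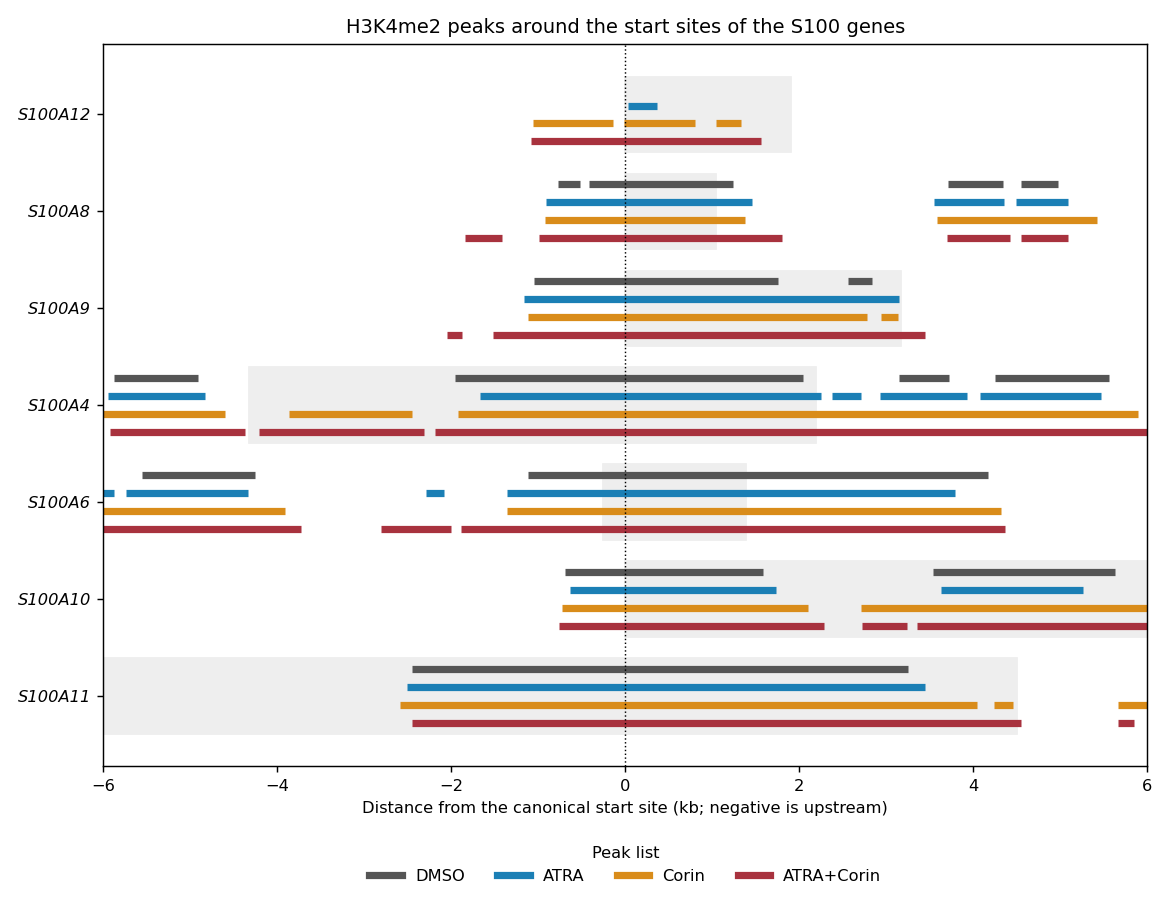
H3K4me2 peaks around the start sites of the 7 genes in the 4 peak lists. The horizontal axis is the distance from the start site in kb, negative upstream on the gene's strand, each row of bars is the list of 1 treatment, and the grey bar is the gene body. S100A12 has no bar at its start in DMSO, and the S100A4 peaks of DMSO and ATRA stand as 1 longer peak in Corin and in the combination.

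S100A12, the alarmin also called calgranulin C, showed the plainest difference between the lists. Its gene body, chr1:153373711-153375621 on the minus strand, held no peak in DMSO, where the nearest peak lay 6450 bases from the start and a peak-free stretch of 16929 bases (chr1:153369172-153386100) spanned the gene. In ATRA a single peak of 325 bases (chr1:153375263-153375587) stood inside the gene and ended 34 bases short of the start. In Corin 3 peaks stood over the gene and its upstream flank: 287 bases (chr1:153374288-153374574), 816 bases over the start (chr1:153374822-153375637) and 920 bases upstream (chr1:153375765-153376684). In the combination 1 peak of 2639 bases (chr1:153374065-153376703) covered the start, reaching 1082 bases upstream and 1556 bases downstream.

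The bases within 5 kb of the S100A12 start that lay under peaks were 0 in DMSO, 325 in ATRA, 2023 in Corin and 2639 in the combination. The gene body was covered over 0%, 17.0%, 56.9% and 81.5% of its length. Fold enrichment over input and −log10 q are the authors' own values for each peak, and are used to place a peak within its list. They depend on the depth and scaling of each list, so they stand side by side and no difference between lists is read from them. The strongest peak in the gene had a fold of 6.67 in ATRA, 12.03 in Corin and 20.02 in the combination, with −log10 q of 11.96, 36.3 and 71.9. Within their lists the start-site peak of Corin had a higher −log10 q than 72.9% of peaks and that of the combination than 83.6%.

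The 250 promoter bases of S100A12 printed above lay outside all peaks in DMSO and ATRA, were covered over 123 bases in Corin and over all 250 in the combination. The uncovered stretch in Corin was 127 bases long, 17 to 143 bases upstream of the start, and both C/EBP matches lie in it. The combination had all 250 bases covered for 7 of 7 members (29.7% of all genes), while Corin had 6 (29.5%), ATRA 6 (39.3%) and DMSO 6 (37.3%). The pattern of S100A12, a start under a peak in Corin and the combination and not in DMSO or ATRA, was shared by 76 protein-coding genes (0.381%). For S100A12 this pattern rests on a small margin. The Corin peak passed the start by 16 bases, and the ATRA peak ended 34 bases short of it. The pattern of the other 6 members, a start under a peak in all 4 lists, was that of 6149 genes (30.8%).

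S100A9, the larger subunit of calprotectin, lies at chr1:153357854-153361023 on the plus strand. Its start-site peak was 2811 bases wide in DMSO, 4313 in ATRA, 3903 in Corin and 4972 in the combination. The upstream edge lay 1053 bases from the start in DMSO, 1166 in ATRA, 1119 in Corin and 1522 in the combination. Downstream the peak ended 1757 bases from the start in DMSO, 3146 in ATRA, 2783 in Corin and 3449 in the combination, so that it ran over the whole gene body in the combination alone. The body was covered over 63.97%, 99.3%, 94.1% and 100% of its length in the same order, and separate peaks near the end of the gene, of 270 bases in DMSO and 200 bases in Corin, count toward them. The start-site peak had a fold of 13.4 in DMSO, 38.3 in ATRA, 22.3 in Corin and 20.02 in the combination, and a −log10 q above that of 78.5%, 90.1%, 93.4% and 93.9% of the peaks in its own list.

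S100A8, the partner of S100A9, lies at chr1:153390032-153391073 on the minus strand and its short body was covered throughout in all 4 lists. The start-site peak was 1652 bases wide in DMSO, 2375 in ATRA, 2299 in Corin and 2789 in the combination. Its upstream edge lay 414 bases from the start in DMSO and between 914 and 992 bases in the 3 drug lists, and a separate DMSO peak of 253 bases stood further upstream. The fold was 12.8, 33.3, 25.8 and 26.4 and the −log10 q 39.8, 149, 103 and 143. In the combination a further peak of 422 bases (chr1:153392491-153392912, −log10 q 0.945) lay 1418 bases upstream of the start. A region downstream of the gene, chr1:153385651-153387525, 3548 bases from the start, held peaks in all 4 lists with a highest fold of 5.37 in DMSO, 18.9 in ATRA, 10.9 in Corin and 11.9 in the combination. The same region held 1056, 1407, 1838 and 1271 bases under peaks.

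S100A4, the protein also known as metastasin, had one of the strongest start-site peaks of the cluster. Its start lies at chr1:153545806 on the minus strand, and its gene record (chr1:153543613-153550136) contains the start of S100A3, 3452 bases away. The start-site peak was 3994 bases wide in DMSO, 3913 in ATRA, 7821 in Corin and 8276 in the combination. In DMSO 3 peaks stood from the S100A4 start to the next gene, S100A5, with gaps of 534 and 1105 bases between them, and in ATRA 4 peaks stood there. In Corin and in the combination a single peak spanned this stretch, chr1:153539723-153547998 at its widest. The peak reached 2037 bases downstream of the start in DMSO, 2246 in ATRA, 5898 in Corin and 6083 in the combination, while its upstream reach stayed between 1666 and 2192 bases. In Corin and the combination 1 wide peak thus stood where DMSO and ATRA had several, and part of its width is not S100A4 sequence.

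A second stretch, chr1:153548125-153550019, lies over the S100A3 start inside the S100A4 gene record. It held a peak in Corin (1418 bases, fold 5.45) and in the combination (1895 bases, fold 5.73) and none in DMSO or ATRA. The S100A4 body was covered over 61.2% in DMSO, 59.2% in ATRA, 84.8% in Corin and 96.3% in the combination. The start-site fold was 46.6, 48.4, 33.8 and 35.4, and each of these peaks had a −log10 q above that of 98.2% or more of its list.

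S100A6, or calcyclin, lies at chr1:153534599-153536244 on the minus strand, with S100A5 between it and S100A4, and was covered over its whole body in all 4 lists. Its start-site peak was 5286 bases wide in DMSO, 5155 in ATRA, 5683 in Corin and 6254 in the combination. The fold was 32.1, 50.5, 27.04 and 44.6. A region upstream of the gene, chr1:153537996-153538799, held a peak of 213 bases in ATRA and of 804 bases in the combination, and none in DMSO or Corin. S100A6 and S100A4 had the 2 highest start-site folds of the members in DMSO, ATRA and Corin, and S100A6 also had the highest in the combination. The windows of 5 kb around their starts share 186 bases.

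S100A10, the annexin A2 partner p11, lies at chr1:151982915-151993859 on the minus strand, in a block with S100A11 apart from the other 5 genes. Its start-site peak was the least enriched of those over a start in DMSO, with folds of 9.47 in DMSO, 7.54 in ATRA, 14.03 in Corin and 14.005 in the combination. The widths were 2275, 2368, 2829 and 3046 bases. A region inside the gene, chr1:151987407-151991152, 2707 bases from the start, held peaks with a highest fold of 9.72 in DMSO, 24.6 in ATRA, 18.1 in Corin and 23.1 in the combination. Those folds exceeded the start-site fold of the same list in all 4 lists. The start of the lncRNA ENSG00000229021 lies 672 bases away on the other strand, and the start-site peak reached past it in DMSO (692 bases), Corin (726) and the combination (764) but not in ATRA (634).

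S100A11, an annexin A1 partner, lies at chr1:152032506-152047907 on the minus strand, with its start at chr1:152037004. The gene record is long because a transcript outside the basic set starts 10903 bases further upstream. Its start-site peak was the widest of the 7 in DMSO and ATRA, with 5700 and 5955 bases, and measured 6642 bases in Corin and 6999 in the combination. The fold was 20.7, 32.6, 22.8 and 38.7. Upstream of the gene, chr1:152048252-152050907 held peaks in all lists, with a highest fold of 14.2 in DMSO, 41.2 in ATRA, 16.2 in Corin and 19.7 in the combination. Downstream of the gene, chr1:152028800-152031344, 5660 bases from the start, also held peaks in all lists. Its highest fold was 14.4 in DMSO, 12.6 in ATRA, 9.29 in Corin and 9.84 in the combination. The order of the lists thus differed between such regions, which were chosen after their values were seen.

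**Figure D2:**
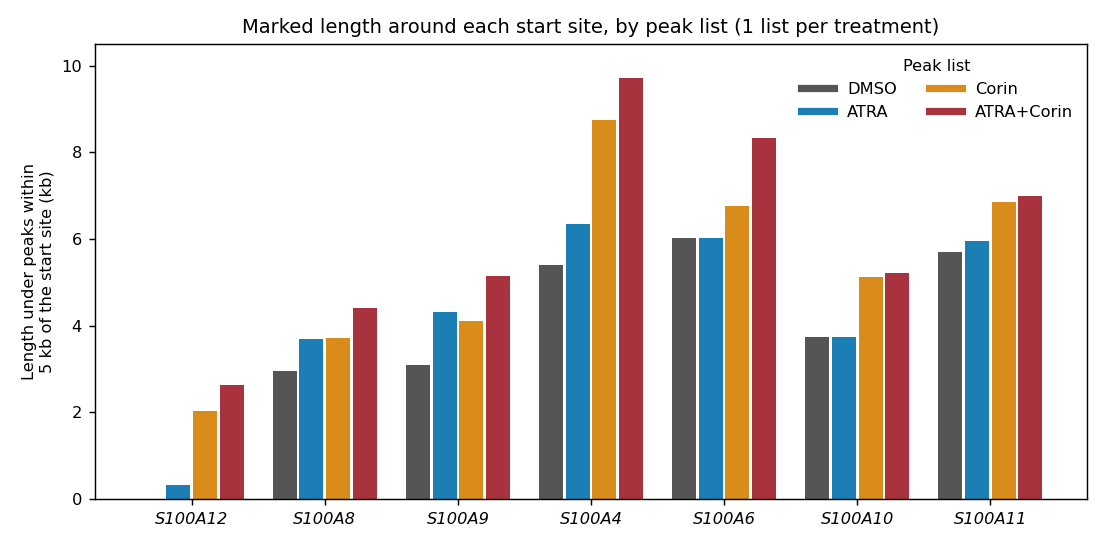
Bases under H3K4me2 peaks within 5 kb of each start site, by gene and peak list. The vertical axis is the covered length in kb, and each bar is from 1 pooled list, so no error is drawn. S100A4 has the highest value in Corin and the combination, 8740 and 9714 bases, and S100A12 runs from 0 in DMSO to 2639 in the combination.

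Within 5 kb of the start, more bases lay under peaks than in DMSO for 6 of 7 members in ATRA (67.3% of genes with a peak there in either list), 7 of 7 in Corin (84%) and 7 of 7 in the combination (87.1%). The exception in ATRA was S100A6, with 6026 bases against 6033 in DMSO. The counts of members stand beside a background that already leaned the same way. The covered length was at least 1.5 times that of DMSO for 1 member in ATRA (S100A12, background 5.67%), 2 in Corin (S100A12 and S100A4, 13.8%) and 3 in the combination (S100A12, S100A4 and S100A9, 23.4%). S100A12 had 0 bases under peaks in DMSO, so a peak of any length would meet this rule. The same holds for genes of the background with no peak there in DMSO. The peak over the start was wider than in DMSO for 4 of the 6 members with a start under a peak in both lists in ATRA (65.9% of such genes), 6 of 6 in Corin (75.4%) and 6 of 6 in the combination (77.4%). The median difference from DMSO over the 7 members was 325 bases in ATRA, 1159 in Corin and 2069 in the combination. Over all genes with a peak in the window in either list it was 137, 477 and 608 bases.

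By gene, the S100A4 window held 5409 bases under peaks in DMSO, 6351 in ATRA, 8740 in Corin and 9714 in the combination. Its difference from DMSO was larger than that of 93.9% of genes in ATRA, 99.5% in Corin and 99.4% in the combination. Within 2 kb of the start the same difference was -290 bases in ATRA, -34 in Corin and 44 in the combination, so it lay farther from the start. The DMSO peak already reached 1956 bases upstream and 2037 bases downstream of that start, so almost nothing could be added within 2 kb. The S100A4 window also takes in the S100A3 start and bases toward S100A5. Part of its difference in Corin and the combination lay there. The S100A9 window held 3081, 4313, 4103 and 5150 bases, and its difference exceeded that of 97.0% of genes in ATRA, 78.0% in Corin and 89.9% in the combination. The S100A8 window held 2961, 3688, 3715 and 4396 bases, with differences above those of 89.8%, 66.6% and 79.8% of genes. Its combination difference was 1435 bases, and 1013 when only peaks with a −log10 q of at least 5 were kept. The calprotectin genes thus stood higher among all genes in ATRA than in Corin. In bases, the S100A8 difference was 727 in ATRA and 754 in Corin, and the S100A9 difference 1232 and 1022. The median over all genes was 137 in ATRA and 477 in Corin, so the rank also reflects this shift.

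The S100A12 difference stood above that of 69.3%, 95.6% and 94.9% of genes in ATRA, Corin and the combination. The S100A10 window held 3736, 3741, 5123 and 5205 bases, with differences above 33.1%, 87.7% and 80.5% of genes. The S100A11 window held 5700, 5955, 6859 and 6999 bases, with differences above 63.4%, 82.4% and 76.7%. The S100A6 window held 6033, 6026, 6767 and 8327 bases, with differences above 31.6%, 65.6% and 92.1%. Within 5 kb, S100A9 had the largest difference of the members in ATRA and S100A4 in Corin and in the combination. Within 2 kb the largest were S100A8 in ATRA with 470 bases, and S100A12 in Corin and the combination with 2023 and 2639. In DMSO the 2 kb window was already full at S100A11 (difference 0 in each drug list), nearly full at S100A4 and empty at S100A12. This ranking therefore depends on the room left in each window. A sign of 1 gene also turned in other windows, since S100A6 in ATRA differed from DMSO by 248 bases within 2 kb and by 881 within 10 kb.

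**Figure D3:**
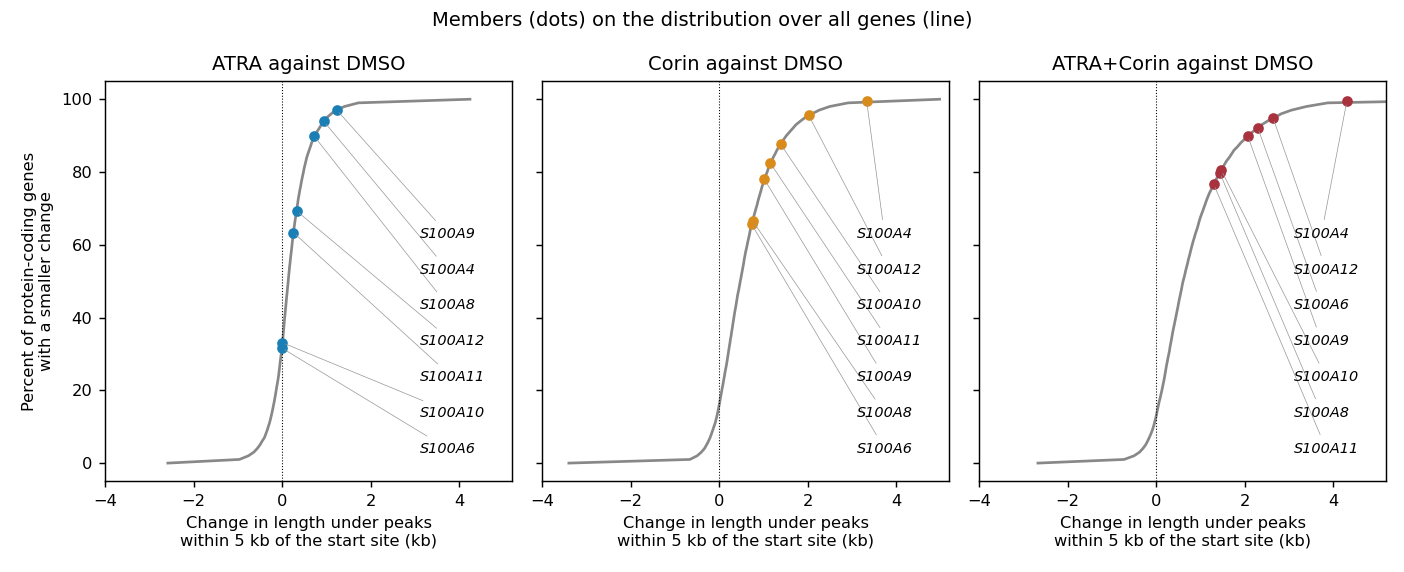
Differences from DMSO in bases under peaks within 5 kb of the start site, by treatment. Dots are the 7 genes and the line is the cumulative share of all protein-coding genes with a peak there in either list, with the difference in kb on the horizontal axis and the percent of genes with a smaller difference on the vertical axis. S100A9 lies furthest right in ATRA at 1232 bases, and S100A4 in Corin at 3331 bases and in the combination at 4305 bases.

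Against the single drugs, the combination had more bases under peaks near the start for 7 of 7 members compared with ATRA (84.3% of genes) and for 7 of 7 compared with Corin (66.4%). At least 1.5 times the ATRA length was reached by 2 members, S100A12 and S100A4 (background 15.1%), and at least 1.5 times the Corin length by 0 members (7.12%). The start-site peak was wider in the combination for 6 of 6 members against ATRA (73.8%) and for 7 of 7 against Corin (62.2%). The median difference was 1464 bases against ATRA, where all genes had 471, and 681 bases against Corin, where all genes had 147. The largest differences from Corin were at S100A6 with 1560 bases and S100A9 with 1047. S100A10 differed from Corin by 82 bases, and by -431 when only peaks with a −log10 q of at least 5 were kept. Under the same rule S100A8 went from 681 to 259 bases, S100A11 from 140 to 357 and S100A12 from 616 to 903. The contrasts of each drug and of the combination with DMSO share the DMSO list, and those of the combination share its list, so they are not separate evidence.

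Over the cluster, 2 blocks were read with 50 kb on either side of their outer genes. The S100A9 to S100A4 block, chr1:153307854-153600136, holds S100A9, S100A12, S100A8, S100A6 and S100A4, and had 30.9 kb under peaks in DMSO, 36.9 kb in ATRA, 46.5 kb in Corin and 53.2 kb in the combination. The S100A10 to S100A11 block, chr1:151932915-152097907, had 18.3, 19.6, 27.7 and 28.9 kb. Relative to DMSO, the first block had 1.19, 1.51 and 1.72 times the covered length in ATRA, Corin and the combination and the second 1.07, 1.51 and 1.58 times. All peaks of the lists together had 1.14, 1.29 and 1.48 times, so the blocks with Corin stood above the lists as a whole and the S100A10 block with ATRA below them.

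**Figure D4:**
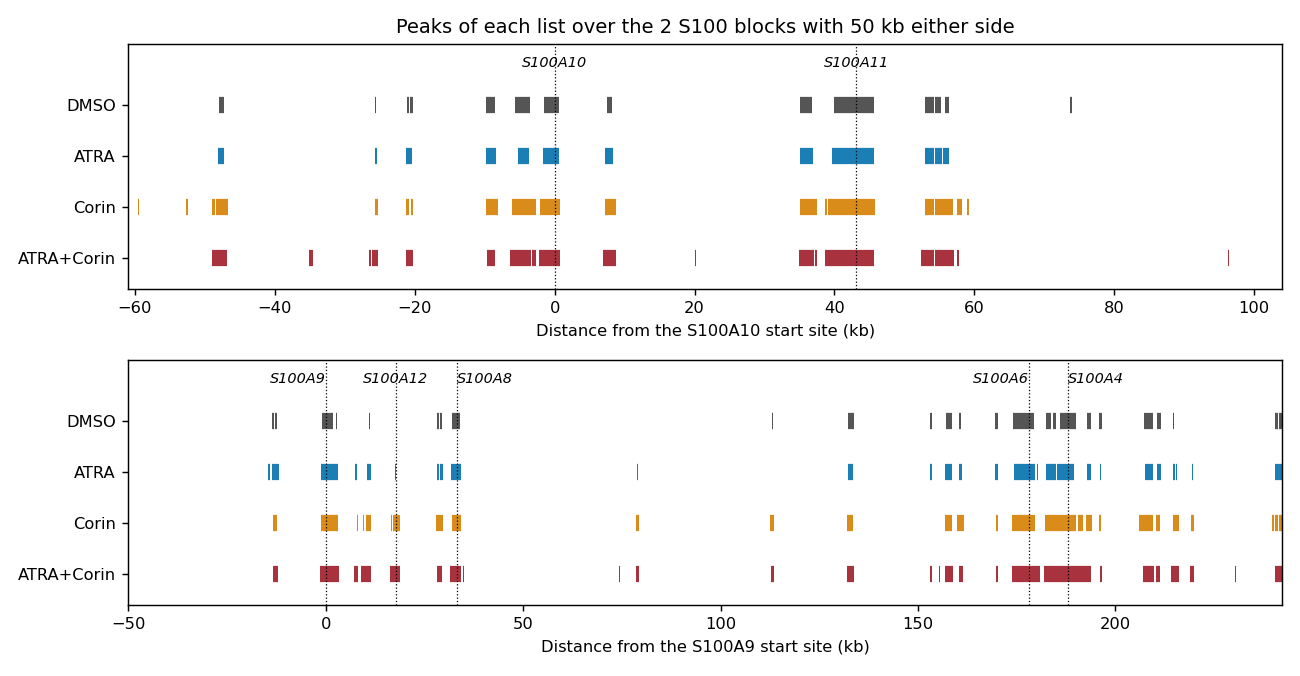
H3K4me2 peaks over both S100 blocks in the 4 lists. The horizontal axis is the distance in kb from the S100A10 start (upper panel) or the S100A9 start (lower panel), rising with chromosome position, bars are peaks, and dotted lines mark the start sites. The S100A9 to S100A4 block has 26 peaks in DMSO and 32 in the combination, and the S100A10 to S100A11 block 14 and 18.

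Overlapping or adjoining peaks of the 4 lists were joined into common regions, of which both blocks together held 54. Of these, 28 held a peak in all 4 lists, 10 in the combination alone, 5 in Corin alone and 4 in the 3 drug lists without DMSO. Against DMSO, 6 regions were gained and 2 lost in ATRA, of 37 held by either list (16.2% and 5.41%, against 16.4% and 7.58% of all regions). Corin gained 11 and lost 2 of 42 (26.2% and 4.76%, against 22.4% and 7.46%), and the combination gained 17 and lost 1 of 48 (35.4% and 2.08%, against 34.9% and 4.55%). The shares of gained regions around the S100 genes were thus close to those of the genome. Gained minus lost came to 4, 9 and 16. It came to 5 in Corin and 6 in the combination when every list was held to the same number of peaks, to 5 and 9 at equal depth, and to 3 and 9 when peaks within 1 kb were merged. In ATRA it came to 1 under that last rule.

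Among the gained regions, the one with the highest −log10 q was the region over the S100A12 start in all 3 contrasts with DMSO. This region joins the peaks of several lists, and the ATRA peak in it ended 34 bases short of the start. With S100A12 included, 4 of the 6 gained regions had a −log10 q of at least 5 in ATRA, 5 of 11 in Corin and 6 of 17 in the combination. The lost region with the highest −log10 q was chr1:153470326-153471350 in ATRA (4.21 in the DMSO list), chr1:153510818-153511355 in Corin (19.5) and chr1:152067595-152067796 in the combination (3.55). The Corin one lay 24636 bases from the S100A6 start and still held peaks in ATRA and the combination. Gene bodies of members held a gained region for 1 gene in ATRA (S100A12, background 18.1%), and for 2 in Corin (24.5%) and 2 in the combination (33.7%), S100A12 and S100A4 in both. Lost regions lay in 0 member bodies (10.4%, 11% and 8.63% of all genes). Against ATRA the combination had a gained region in 1 body, S100A4 (30.9%), and against Corin in 0 (28.4%), with lost regions in 0 (9.06% and 12.2%). Over both blocks it gained 13 and lost 1 of 48 regions against ATRA (27.1% and 2.08%, against 28.4% and 4.97% of all regions). Against Corin it gained 12 and lost 5 of 52 (23.1% and 9.62%, against 24% and 6.59%).

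Of 9 other protein-coding S100 genes found on chromosome 1, start sites under a peak numbered 2 in DMSO, 2 in ATRA, 3 in Corin and 3 in the combination. The added one was S100A3, which lies beside S100A4 and takes the peaks over the S100A4 gene record described above. S100A5, whose start is in the stretch that merges with the S100A4 peak, had a start-site peak of 1309 bases in DMSO, 1396 in ATRA, 7821 in Corin and 8276 in the combination. Of 4 S100 genes on other chromosomes, 2 had a start under a peak in each list. Of 7 S100 partners and receptors (ANXA1, ANXA2, AHNAK, AGER, TLR4, CD36 and BSG), 6, 6, 5 and 4 had one, and 6 had a peak within 1 kb in every list.

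ANXA1, the partner of S100A11, had a start under a peak in DMSO (1059 bases wide) and ATRA (4575 bases) and not in Corin or the combination. The bases under peaks within 5 kb of it were nevertheless 3665, 6671, 7306 and 8584. BSG, a receptor of S100A9, had a start-site peak of 3280, 2972 and 3943 bases in DMSO, ATRA and Corin and none at its start in the combination, with 7145, 6595, 7604 and 6736 bases under peaks within 5 kb. Of 4 regulators of myeloid genes (SPI1, CEBPA, CEBPB and CEBPE), 4 starts were under a peak in DMSO, ATRA and Corin and 3 in the combination, where CEBPA was the one without. All 4 had a peak within 1 kb in every list, and CEBPA had 6434 bases under peaks within 5 kb in DMSO and 7164 in the combination. CEBPA is named after its values were seen.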

How the data were processed

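H3K4me2 and input libraries were grouped by their titles, and 1 pooled peak list per treatment was analysed. Each list is labelled as the optimal peaks of a reproducibility overlap, whose settings are not given in the sources used here. Whether a peak missing from a list was left out at that step was not tested. Per the submitters' processing notes, Trimmomatic, Bowtie2, Picard, MACS2 and the hg38 build were used; roles and versions are not given in the sources used here. Each list holds the deposited score, fold enrichment (a ratio), −log10 p, −log10 q and the summit offset (another value per peak) that the authors' peak caller gave. Of the DMSO starts, 4.60% stayed under a peak after a shift of 1 Mb.

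Start sites came from GENCODE 44. Windows, gene bodies and merged regions were computed with Python 3.11.15, numpy 2.4.6, pandas 2.3.3 and scipy 1.17.1, and the script was tested on simulated data. Depth was solved from each peak's fold and −log10 p (96.6% to 99.6% solved). Named genes are all 7 members, and other listed genes whose start turned covered or uncovered against DMSO. S100A5 falls outside this rule and is given as a neighbour of S100A4. Named regions are the strongest gained and lost ones against DMSO and those over a member's start. The other regions given beside a member were chosen after their values were seen. The members and lists were chosen with earlier results of these data known. Alternatives were stricter q, equal peak number, equal depth, other windows and other overlap rules. No test was possible, with 1 list per treatment.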

Additional observations from a re-analysis of the deposited data

How the results depend on the processing

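The counts of starts under a peak (6, 6, 7 and 7), of members with a peak nearby, the covered lengths and the gene-body shares kept their direction and moved by less than 1.5 times under every alternative run. The runs with stricter q, equal peak number and equal depth drop whole weak peaks and never narrow a peak. Every start-site peak of a member had a −log10 q of 36.3 or more, so these runs could not change the start counts or those widths. They therefore cannot tell whether depth widened the peaks. With the balance of regions included, 125 values stayed within the limit of 1.5 times and 21 moved. All 21 were gained minus lost regions over both blocks (4 in ATRA, 9 in Corin and 16 in the combination against DMSO, 12 in the combination against ATRA and 7 against Corin). With a −log10 q of at least 5 the combination gave 7 against DMSO, 2 against ATRA and 1 against Corin. With the same number of peaks Corin gave 5 and the combination 6, 2 and 1. At equal depth Corin gave 5 and the combination 9, 6 and 4. With peaks within 1 kb merged, ATRA gave 1, Corin 3 and the combination 9. Single peaks matched at 50% of their length gave 7 in ATRA, 22 in Corin and 23 in the combination against ATRA; single peaks matched at 1 base gave 16 in Corin. With 10 kb either side Corin gave 5. Over the whole span Corin gave 14 and the combination against ATRA 20. The cause was not tested beyond the construction: fewer or more peaks and regions are counted.

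Of the single-gene differences, 102 stayed within the limit, 65 moved in size and 8 turned sign: S100A10 in the combination against Corin was -431 with the stricter q, with the same number of peaks and at equal depth and -21 within 10 kb, S100A4 within 2 kb was -290 in ATRA and -34 in Corin, and S100A6 in ATRA was 248 within 2 kb and 881 within 10 kb. No paired analysis was possible because each list pools its replicates, and leaving out a replicate was not possible for the same reason.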

Other observations

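Between the 2 S100 blocks lie 1209.946 kb with 45 protein-coding genes. This stretch is a part of the epidermal differentiation complex, many of whose genes serve the outer skin layers. The stretch held 9 peaks in DMSO, 8 in ATRA, 14 in Corin and 16 in the combination, covering 0.696%, 0.635%, 0.912% and 1.04% of its length. The S100A9 to S100A4 block, on its far side, was covered over 10.6%, 12.6%, 15.9% and 18.2%. In each list 1 of the 45 start sites lay under a peak.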
